A study of Mus musculus with 4 samples.

Results

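The RNAs described here are the named noncoding RNAs that gave clear signal in cultures of mouse Kupffer cells, which are macrophages that live in liver sinusoids. They were chosen as array probes designed against a RefSeq noncoding transcript (an accession beginning with NR_) whose gene has a given name, leaving out Riken clone names, LOC and Gm identifiers and single microRNA genes. A probe also had to be marked well above background on all 4 arrays. This gave 254 probes for 225 genes, out of 588 named noncoding probes for 516 genes and 56605 probes in all (22911 named genes). Of the other named noncoding probes, 39 were well above background on 1 to 3 arrays and 295 on none. The choice used detection on every array and no difference between treatments. The label of long noncoding and host RNAs covers only some of them: 68 probes were for other long noncoding RNAs, 23 for hosts of small RNAs, 51 for antisense transcripts, 56 for pseudogenes, 30 for noncoding transcripts of protein-coding genes and 26 for small structural RNAs.

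Primary Kupffer cells had been isolated from livers of male C57BL/6 mice aged 8 weeks by perfusion with type IV collagenase and a Percoll gradient, and plated in RPMI medium with 10% FBS. All cultures were then kept for 24 h in medium with 0.1% FBS. The vehicle group (2 arrays) received ethanol and the MaR1 group (2 arrays) received 200 nM maresin 1, a macrophage product of the fatty acid DHA that belongs to the pro-resolving lipids. Whether the replicates of a group came from different cultures or mice is not stated, and p-values therefore measure just the spread among these 4 arrays, which may be technical.

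Long noncoding RNAs are transcribed and often spliced like messenger RNAs but are not translated into a known protein. Some act in the nucleus, where they silence or activate neighbouring genes or scaffold nuclear bodies, and others act by being transcribed across a gene on the opposite strand. Host RNAs carry microRNAs or small nucleolar RNAs within their introns or exons, and these are cut out during processing while the spliced host is often degraded. In macrophages, noncoding RNAs of this kind are known to take part in inflammatory gene control, cholesterol export and cell survival.

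Among the hosts, Mirc35hg carries the miR-183 cluster and Dleu2 carries miR-15a and miR-16, so the mature forms are given here to show what the hosts contain. Mature microRNAs themselves were not analysed here. The sequences are RefSeq's for build GRCm38.p6, written 5′ to 3′ with the seed, bases 2 to 8, in capitals. The miR-183 cluster lies on the minus strand of chromosome 6, at chr6:30165962-30165986 for miR-182, chr6:30169506-30169528 for miR-96 and chr6:30169711-30169732 for miR-183.
mmu-miR-182-5p: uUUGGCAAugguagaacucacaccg
mmu-miR-96-5p: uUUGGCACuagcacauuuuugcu
mmu-miR-183-5p: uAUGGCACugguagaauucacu
The Dleu2 microRNAs, on the minus strand at chr14:61632075-61632096 and chr14:61631936-61631957, share 1 seed, whereas the 3 microRNAs of Mirc35hg have 3 different seeds.
mmu-miR-15a-5p: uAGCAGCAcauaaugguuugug
mmu-miR-16-5p: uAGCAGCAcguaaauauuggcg
The host Mir22hg carries miR-22, on the plus strand at chr11:75463772-75463793.
mmu-miR-22-3p: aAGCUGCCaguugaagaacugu

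Promoter sequences, from 250 bases before to 50 bases after the RefSeq start, were on hand for 127 of the 225 genes. Those of Platr5, Plet1os and Kcnq1ot1 are printed as those of the long noncoding RNA with the widest rise, the antisense RNA with the widest fall and the RNA of an imprinted domain. They lie at chr1:88754640-88754939 on the plus strand for Platr5, chr9:50504756-50505055 on the minus strand for Plet1os and chr7:143296498-143296797 on the minus strand for Kcnq1ot1 (GRCm38.p6), and are written 5′ to 3′ along the transcript.
Platr5: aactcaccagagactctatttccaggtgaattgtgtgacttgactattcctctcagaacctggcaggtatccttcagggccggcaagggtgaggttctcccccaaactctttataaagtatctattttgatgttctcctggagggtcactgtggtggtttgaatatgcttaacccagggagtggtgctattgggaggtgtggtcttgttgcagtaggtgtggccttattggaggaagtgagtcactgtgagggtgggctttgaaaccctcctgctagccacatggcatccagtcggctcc
Plet1os: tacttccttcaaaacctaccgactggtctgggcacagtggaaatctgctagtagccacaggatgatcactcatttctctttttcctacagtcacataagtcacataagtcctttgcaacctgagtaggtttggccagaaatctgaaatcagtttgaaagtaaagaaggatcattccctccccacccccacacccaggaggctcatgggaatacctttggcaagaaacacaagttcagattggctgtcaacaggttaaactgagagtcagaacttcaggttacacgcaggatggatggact
Kcnq1ot1: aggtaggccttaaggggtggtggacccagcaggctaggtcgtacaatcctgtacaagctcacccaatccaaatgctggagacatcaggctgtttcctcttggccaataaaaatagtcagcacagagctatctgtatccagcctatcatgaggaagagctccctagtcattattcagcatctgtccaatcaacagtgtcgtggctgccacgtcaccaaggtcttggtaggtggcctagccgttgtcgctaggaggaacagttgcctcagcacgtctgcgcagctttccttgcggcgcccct
Both strands were searched for AGGTCA, the core site of nuclear receptors such as the ROR family, and for TTC and GAA spaced by any 4 bases, a STAT-type site. The motifs can overlap each other only in part. None of the 3 promoters held either motif, so no base is in capitals. Over 27025 RefSeq promoters of the same length, 16.04% held AGGTCA and 6.99% held the STAT-type site, and over the 127 promoters of these noncoding RNAs the shares were 12.6% and 5.51%. The promoters of Platr5 and Plet1os held 2 CpG dinucleotides each and that of Kcnq1ot1 held 9, against a median of 7 over all promoters and 18 over the 127.

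Signal was measured by 1-colour hybridisation. Processed signal had its 75th percentile at 961 and 988 with vehicle and at 946 and 847 with MaR1, and no spot was saturated. Across tested probes, which are not independent replicates, log2 levels correlated with r = 0.998 between the arrays of each group and with r from 0.989 to 0.991 between groups. All 4 arrays lay on 1 slide, with the vehicle arrays at the first positions and the MaR1 arrays at the next, and the effect of position cannot be told apart from that of treatment. A level is log2 of that signal minus log2 of the array's percentile, and a difference is the MaR1 mean minus the vehicle mean on that scale, with the standard error (SE) of the limma fit. A probe is called where limma's adjusted p (Benjamini-Hochberg over all 31108 probes tested) was under 0.05. In bulk RNA, fewer cells that make a transcript and less of it per cell cannot be told apart.

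With MaR1, 26 of the 254 probes were called higher and 28 lower. Over all probes tested, 24% were called, 11.6% higher and 12.4% lower, so the shares among these RNAs (10.2% higher and 11.02% lower) were near the background. At an unadjusted p under 0.05 there were 106 probes (41.7%), against 40.7% of all probes tested. The median difference was -0.11 against -0.01 over all probes tested. Both MaR1 arrays lay below both vehicle arrays for 43.3% of these probes (36.4% of all probes tested), and above for 23.6% (33.2% of all). Dim probes as a whole were lower with MaR1. The median over all tested probes was -0.09 among the 10369 dimmest and 0.05 among the 10370 brightest. The dimmest held 99 of these probes, with a median of -0.15, and the brightest 68, with a median of -0.0010. The 10369 of middle level had a median of -0.04 and held 87 of these probes, with a median of -0.14. The lower median of these probes was thus not confined to dim ones. Lower calls numbered 9 among the dimmest, 16 at middle level and 3 among the brightest, and higher calls 7, 10 and 9. The called shares were 16.2%, 29.9% and 17.6%, against 23.7%, 26.4% and 21.9% of all tested probes. Left unscaled, the arrays gave 12 higher and 47 lower calls, with the median of all probes tested at -0.14. Normexp background correction with quantile normalization gave 33 higher and 61 lower. Leaving out vehicle replicate 1 left 8 higher and 6 lower, vehicle replicate 2 11 and 7, MaR1 replicate 1 14 and 9, and MaR1 replicate 2 11 and 6; over all probes the called share then fell from 24% to between 8.06% and 11.3%. Calls for 9 probes held in all 4 of these fits: Serpina3h, Platr5, Ccdc169, Zfp133-ps, Dnmt3aos and Stxbp3-ps rose, and Plet1os, Zfp862-ps and AU022793 fell. A further 15 calls were lost in 1 to 3 of them, and 30 in each of the 4. All 54 called differences kept their sign without scaling and with quantile normalization.

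**Figure D1:**
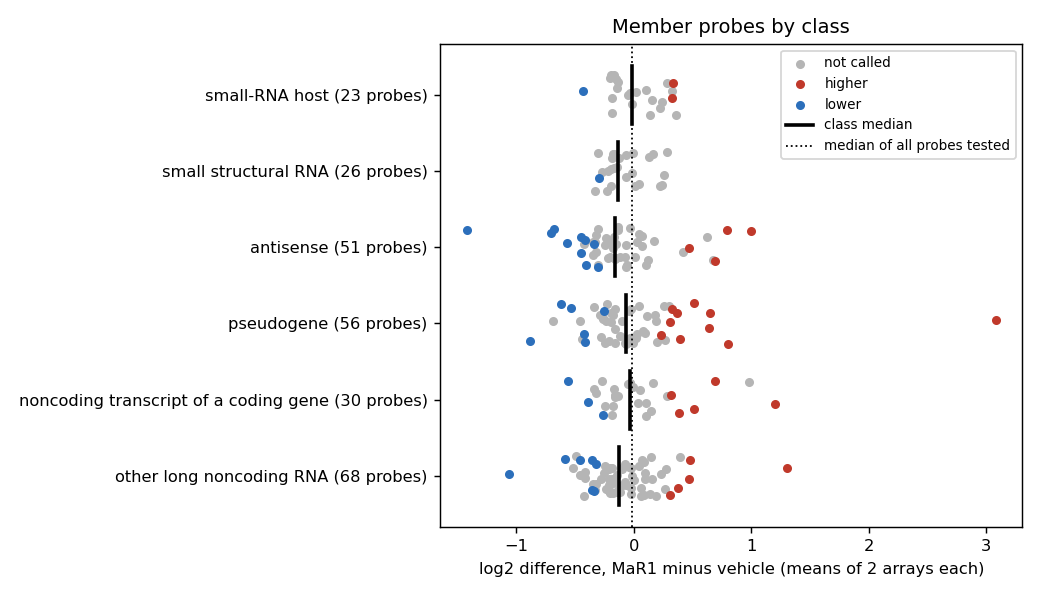
Log2 difference between MaR1 and vehicle (x axis, MaR1 mean minus vehicle mean, 2 arrays each) for the 254 probes, 1 point per probe, split by class; red points were called higher, blue lower and grey neither, black bars mark class medians and the dotted line the median of all probes tested. Most points lie within 0.5 of zero, Serpina3h stands alone at 3.08, and the antisense class has 10 lower and 4 higher calls. Of those 10, 3 are probes of Kcnq1ot1, and 27.5% of the class was called against 24% of all probes tested.

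The widest rises were in RNAs of different kinds. Platr5, a transcript first catalogued as pluripotency-associated, had levels of -3.26 and -3.47 with vehicle and -2.15 and -1.98 with MaR1. Both MaR1 arrays lay above both vehicle arrays, and the rise of 1.30 (SE 0.107, 2.46-fold, limma adjusted p = 0.00557) held with any array left out, at an adjusted p of at most 0.0355. Zfp133-ps, a zinc finger pseudogene with strong signal, read 3.84 and 3.80 with vehicle and 4.55 and 4.69 with MaR1, a rise of 0.80 (SE 0.0731). The widest fall was in Plet1os, the opposite-strand transcript of Plet1, a surface protein of epithelial progenitors and some myeloid cells. Its levels were -2.99 and -3.11 with vehicle and -4.43 and -4.51 with MaR1, a fall of 1.42 (SE 0.0731, 2.68-fold, limma adjusted p = 0.00283; at most 0.0261 with any array left out). AU022793, a clone-named RNA singled out after its values were seen, read -0.76 and -0.78 against -1.89 and -1.78, a fall of 1.06 (SE 0.0663). The groups did not overlap in any of these RNAs. For Platr5, Zfp133-ps and Plet1os this was a condition of the choice.

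**Figure D2:**
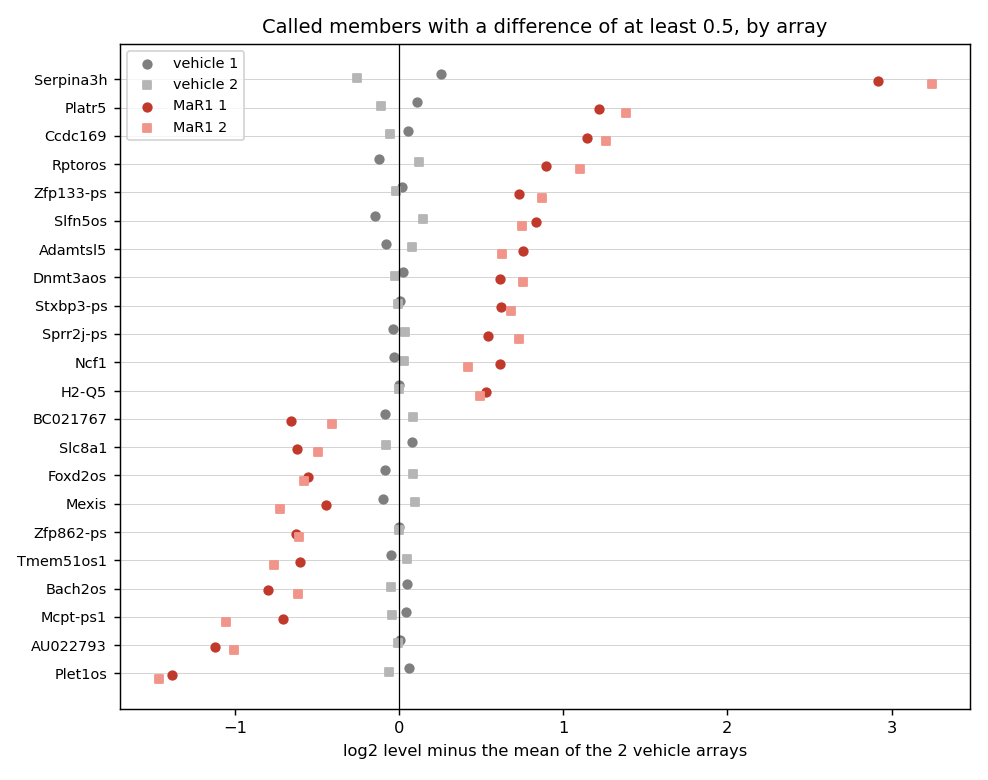
Level of each called probe with a difference of at least 0.5 on each of the 4 arrays, as log2 level minus the mean of the 2 vehicle arrays (x axis); grey marks are vehicle arrays, red marks MaR1 arrays, circles replicate 1 and squares replicate 2. In all 22 probes, 12 higher and 10 lower, the MaR1 marks lie wholly to one side of the vehicle marks, from 3.24 in Serpina3h to -1.46 in Plet1os. The probes were chosen for a call and a wide difference, so this separation is no added evidence. Of all probes tested, 33.2% had both MaR1 arrays above both vehicle arrays and 36.4% had them below.

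Of the 23 probes for small-RNA hosts, 2 were called higher and 1 lower (13.04%, against 24% of all probes tested). The median difference was -0.01. At an unadjusted p under 0.05 there were 10 host probes (43.5%), near the 40.7% of all probes tested. Mirc35hg, the host of miR-182, miR-96 and miR-183, read -0.99 and -1.04 with vehicle and -1.47 and -1.42 with MaR1. It fell by 0.43 (SE 0.059, limma adjusted p = 0.0152), with both MaR1 arrays below both vehicle arrays; the call was lost when any of the 4 arrays was left out (adjusted p 0.0587 to 0.0792). Snhg15, a host of a small nucleolar RNA, rose by 0.33 at 1 of its 2 probes, from 1.60 and 1.54 to 1.85 and 1.96 (limma adjusted p = 0.036); the other, brighter probe differed by 0.22 (adjusted p = 0.103). Pvt1, a host locus beside Myc, rose by 0.33 at 1 probe, from 0.74 and 0.80 to 1.04 and 1.16 (limma adjusted p = 0.0421), and its other probe also differed by 0.33 (adjusted p = 0.0795). The calls for Snhg15 and Pvt1 were likewise lost without any one of the 4 arrays. Without scaling, the host counts were 0 higher and 1 lower.

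The neighbouring gene Myc, the growth-promoting transcription factor, rose at both tested probes, by 0.76 (SE 0.0938, limma adjusted p = 0.0123) and by 0.65 (SE 0.111, adjusted p = 0.0236). The brighter Myc probe read 1.74 and 1.88 with vehicle and 2.66 and 2.49 with MaR1. Leave-one-out fits kept the first Myc call in 3 of 4 and the second in 1 of 4, with adjusted p up to 0.052 and 0.082, respectively.

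The snoRNA hosts of the Snhg series, several of whose spliced transcripts are known targets of nonsense-mediated decay, gave 14 probes. Of these, 1 was called higher and 0 lower by limma (7.14%, against 24% of all probes tested). At an unadjusted p under 0.05 there were 6 (42.9%), near the 40.7% of all probes tested. Their differences ran from -0.20 to 0.33. Snhg1 read 0.75 and 0.67 with vehicle and 0.87 and 1.02 with MaR1 (difference 0.24, adjusted p = 0.097). Snhg5 read 2.63 and 2.71 against 2.43 and 2.51 (-0.20, adjusted p = 0.0984), and Snhg3 2.29 and 2.31 against 2.14 and 2.09 (-0.19, adjusted p = 0.079). In each of these 3 the groups did not overlap, although the calls were not made. Such separation was common: of the 14 Snhg probes, 5 lay wholly above and 7 wholly below with MaR1. Over all probes tested the shares were 33.2% and 36.4%. Snhg12 (0.02), Snhg16 (0.10), Snhg6 (0.14), Snhg8 (0.16), Snhg20 (-0.19) and Epb41l4aos (0.28, adjusted p = 0.0678) were not called either. Of the microRNA hosts, Dleu2 read 0.24 and 0.20 with vehicle and 0.16 and 0.21 with MaR1, and Mir22hg 2.26 and 2.32 against 2.19 and 2.29, so the groups overlapped in both (-0.03, SE 0.0582, and -0.05, SE 0.0667). The imprinted hosts Meg3 (-0.01) and Rian (-0.14) and the host-class RNA Mirt1 (0.36, SE 0.365, with 1 vehicle array at -4.75 and the other at -3.69) were not called.

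The 26 small structural RNA probes cover spliceosomal, nucleolar and ribosomal RNAs, the RNase P and MRP RNAs and others of this kind, most of which carry no poly(A) tail. None was called higher and 1 lower by limma (3.85%, against 24% of all probes tested), and the median difference was -0.14. At an unadjusted p under 0.05 there were 2 probes, and without scaling the counts were 0 higher and 3 lower. The 1 call, Snora34, fell by 0.30, from -3.34 and -3.38 to -3.69 and -3.64 (SE 0.0585, limma adjusted p = 0.0321), and was lost without any one array (adjusted p up to 0.141). In this class the MaR1 arrays differed from each other: MaR1 replicate 1 lay below MaR1 replicate 2 for 22 of the 26 probes and was the lowest of the 4 arrays for 20. The median of MaR1 replicate 2 minus replicate 1 was 0.32, against 0.0034 over all probes tested and 0.10 for the hosts. Regardless of sign, the median gap was 0.36, against 0.09 over all probes tested and 0.10 for the hosts. Replicate 2 was above by over 0.3 for 53.8% of the structural probes and 4.34% of all probes tested. MaR1 replicate 1 was also the lower of the 2 for 17 of the 23 host probes and 61.4% of the 254 probes, against 51.1% of all probes tested. Relative to the vehicle mean, the median of the structural probes was -0.24 on MaR1 replicate 1 and 0.05 on MaR1 replicate 2. Vehicle replicate 2 minus vehicle replicate 1 had a median of -0.04. U1 small nuclear RNA, which base-pairs with 5′ splice sites, had this gap too, but with MaR1 replicate 2 above the vehicle arrays. Rnu1a1 read 2.53 and 2.44 with vehicle and 2.37 and 3.16 with MaR1, and Rnu1b1 and Rnu1b6 had the same order of arrays; these 3 are near-identical copies whose probes can share signal. With all 4 arrays the 3 U1 probes differed by 0.28, 0.24 and 0.22 and were not called (limma adjusted p 0.483 to 0.559). Without MaR1 replicate 1 they differed by 0.68, 0.61 and 0.59, values that rest on MaR1 replicate 2 alone. Rn7sk, which holds the elongation factor P-TEFb inactive, read 2.53 and 2.47 against 2.08 and 2.56, and Rpph1, the RNase P RNA, read -0.69 and -0.89 against -1.36 and -0.88. Rmrp (-0.27, adjusted p = 0.164), Terc, the telomerase RNA (0.16), and Rnu12 (0.26, adjusted p = 0.0734) were not called.

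**Figure D3:**
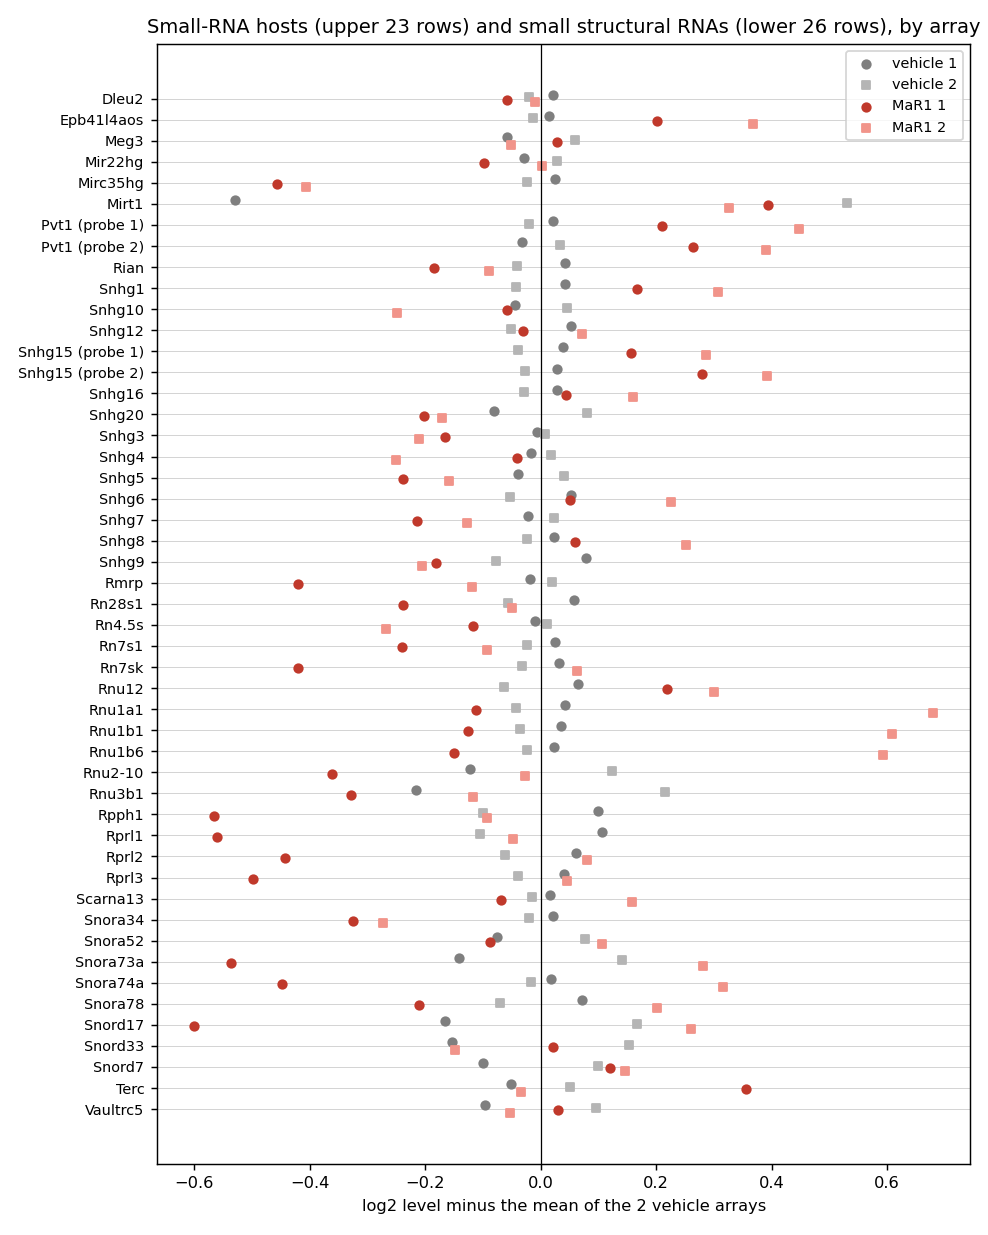
Level on each array as log2 level minus the mean of the 2 vehicle arrays (x axis) for the 23 small-RNA host probes (upper rows) and the 26 small structural RNA probes (lower rows); grey marks are vehicle and red marks MaR1, circles replicate 1 and squares replicate 2. The red square lies right of the red circle for 17 of 23 host probes and for 22 of 26 structural probes. The median of MaR1 replicate 2 minus replicate 1 is 0.10 over the hosts and 0.32 over the structural RNAs.

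For 5 RNAs a small RNA inside the span of the longer one was measured too. Snhg3 differed by -0.19 and its Snora73a by -0.13, Snhg10 by -0.15 and Scarna13 by 0.04, Snhg9 by -0.19 and Snora78 by -0.0054, Snhg4 by -0.15 and Snora74a by -0.07, and AA465934 by 0.10 and Snord7 by 0.13. None of the 10 probes was called. The nested RNAs in Snhg3 and Snhg4 carried the wide gap between MaR1 arrays (1.09 and 1.91 for Snora73a, -4.84 and -4.08 for Snora74a), which their hosts did not show (2.14 and 2.09 for Snhg3, -4.40 and -4.61 for Snhg4). A mature small RNA and its unprocessed host can both bind such a probe, so these values are not fully separate.

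Antisense and opposite-strand RNAs, which can act on the gene they overlap, gave 51 probes with 4 called higher and 10 lower and a median of -0.16 (without scaling, 4 and 14). The called share was 27.5% (7.84% higher and 19.6% lower), against 24% of all probes tested (11.6% higher and 12.4% lower). Of the 10 lower calls, 3 were at probes of 1 RNA, Kcnq1ot1. Rptoros, opposite the mTORC1 subunit gene Rptor, rose by 1.00 (SE 0.122, limma adjusted p = 0.0123), from -5.03 and -4.78 to -4.01 and -3.81; without MaR1 replicate 2 its adjusted p was 0.0553. Slfn5os, opposite the interferon-inducible gene Slfn5, rose by 0.79, from -4.59 and -4.30 to -3.61 and -3.69 (SE 0.115, adjusted p by limma 0.0173). Its call was lost without either MaR1 array (adjusted p up to 0.0715). Dnmt3aos, opposite the DNA methyltransferase gene Dnmt3a, rose by 0.69, from -1.21 and -1.27 to -0.62 and -0.48 (SE 0.0742), and kept its call with any array left out. Fbxl12os rose by 0.47, from 3.15 and 3.17 to 3.65 and 3.60 (SE 0.0567), and lost the call without any one array. In each of these the MaR1 arrays lay above both vehicle arrays.

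Besides Plet1os and Kcnq1ot1, the antisense RNAs that fell were Bach2os, Tmem51os1, Foxd2os, Lppos, Ggnbp2os and Fam120aos. Bach2os, opposite the lymphoid transcription repressor gene Bach2, read -1.61 and -1.70 with vehicle and -2.45 and -2.27 with MaR1, a fall of 0.71 (SE 0.0874, limma adjusted p = 0.0125; 0.0582 without vehicle replicate 1). Tmem51os1 read -0.18 and -0.08 against -0.73 and -0.89, a fall of 0.68 (SE 0.0831, limma adjusted p = 0.0121; 0.0543 without vehicle replicate 2). Foxd2os fell by 0.57 (SE 0.0791) and kept its call only without vehicle replicate 1. Falls in Lppos (0.45), Ggnbp2os (0.34) and Fam120aos (0.30) lost the call without any one array, with adjusted p up to 0.136. The MaR1 arrays lay below both vehicle arrays in all 6.

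For antisense RNAs whose symbol is that of the sense gene with a suffix, the sense gene had a tested probe beside 40 probes of 39 RNAs; Kcnq1ot1 and Kcnq1, which also fell, are not in this count and are described separately. Among the 11 of the 40 that were called, the sense gene was called in the same direction for 2, in the opposite direction for 0 and not called for 9. Of all probes tested, 24% were called, and the pairs are too few to be set against that share. Dnmt3a rose by 0.37 (SE 0.0579, limma adjusted p = 0.0196) beside Dnmt3aos, and Bach2 fell by 0.37 (SE 0.0743, adjusted p = 0.0347) beside Bach2os; both sense calls were lost without any one array. Plet1 read -2.07 and -1.83 with vehicle and -2.20 and -2.20 with MaR1 (-0.25, SE 0.0963, adjusted p = 0.134). Rptor differed by 0.07 (SE 0.0577), Slfn5 by 0.17 (SE 0.0727), Tmem51 by -0.02 (SE 0.0612), Foxd2 by 0.08 (SE 0.0639) and Fbxl12 by 0.05 (SE 0.0583), none of them called. The difference between an antisense RNA and its sense gene was not itself tested. Of the 29 uncalled antisense probes, which ran from -0.35 to 0.67, 4 stood beside a called sense gene. Oip5 rose by 0.52 beside Oip5os1 (0.12, adjusted p = 0.301), Arhgap27 fell by 0.53 beside Arhgap27os3 (0.67, SE 0.201, adjusted p = 0.0801), Smc2 rose by 0.36 beside Smc2os (-0.06) and Far1 fell by 0.23 beside Far1os (-0.06). Each of these 4 sense calls was lost without at least 1 array (highest adjusted p 0.05 for Oip5, 0.0607 for Arhgap27, 0.117 for Smc2 and 0.194 for Far1).

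**Figure D4:**
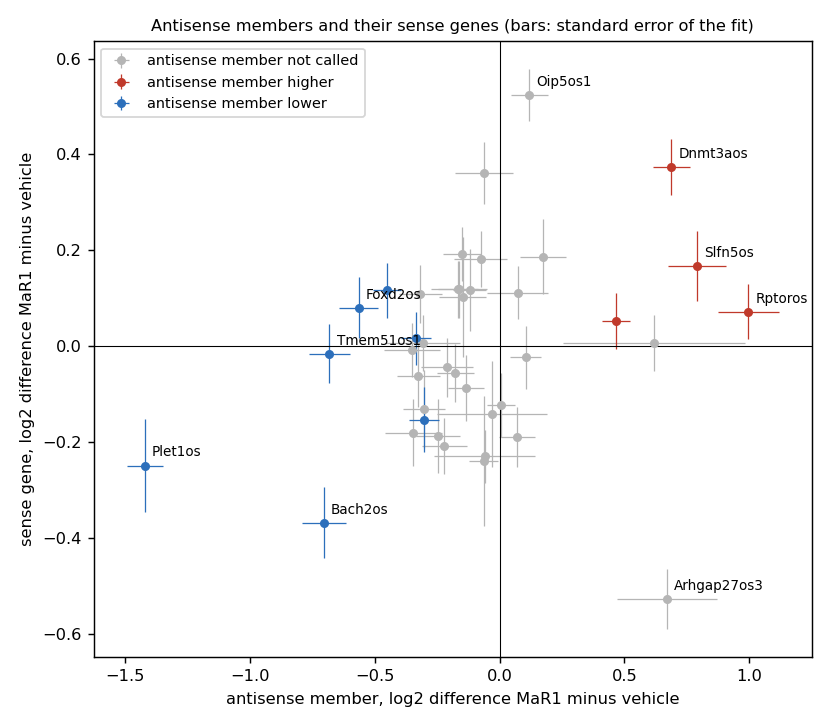
Log2 difference between MaR1 and vehicle for 40 antisense probes named after their sense gene (x axis) and for the sense gene of each (y axis, its brightest tested probe), with bars of 1 standard error of the fit; red and blue points are antisense probes called higher and lower. Sense genes lie between -0.53 and 0.52 while the antisense RNAs spread from -1.42 to 1.00, and Dnmt3aos and Bach2os are the 2 pairs plotted in which both RNAs were called; Kcnq1ot1 and Kcnq1 are not plotted.

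Kcnq1ot1 is the paternally expressed RNA that runs opposite to Kcnq1 and is known for silencing genes of its imprinted domain. It had 4 probes above background. They read -2.87 and -2.99, -1.64 and -1.66, 2.06 and 1.94, and 1.26 and 1.20 with vehicle. With MaR1 the same probes read -3.43 and -3.34, -2.04 and -2.10, 1.61 and 1.57, and 1.08 and 0.98. The MaR1 arrays lay below the vehicle arrays at all 4. The first 3 fell by 0.45, 0.42 and 0.41 (limma adjusted p 0.0224, 0.0156 and 0.0236), and the last differed by -0.21 (adjusted p = 0.0919). Each of the 3 calls was lost without any one array, at adjusted p up to 0.0985. Kcnq1 itself, a potassium channel gene, fell at both tested probes, by 0.92 (SE 0.0935) and 0.89 (SE 0.0789), from -0.63 and -0.64 to -1.44 and -1.66 at the first. These calls held with any array left out (adjusted p up to 0.0414). Cdkn1c, a cell cycle inhibitor gene of the domain, rose by 0.33, from 1.43 and 1.53 to 1.84 and 1.77 (SE 0.0679, adjusted p = 0.0362 by limma), and lost the call without any one array.

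The other imprinted RNAs were not called. Airn, the antisense RNA of Igf2r, differed by -0.10 and -0.19 at 2 probes, and Peg13 by -0.33 (0.32 and 0.37 against 0.14 and -0.12, adjusted p = 0.0882). Trappc9, the gene around Peg13, fell by 0.45 at 1 probe (SE 0.0627, limma adjusted p = 0.0158; up to 0.0778 with an array left out), and its second probe differed by -0.38 (adjusted p = 0.157).

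Pseudogene probes gave 10 higher and 6 lower calls of 56 (28.6%, against 24% of all probes tested), with a median of -0.06. Without scaling the split was 5 higher and 11 lower. Serpina3h, a pseudogene of the Serpina3 cluster of secreted protease inhibitors, had the widest difference of all 254 probes. It read -2.50 and -3.01 with vehicle and 0.16 and 0.49 with MaR1, a rise of 3.08 (SE 0.214, 8.46-fold, limma adjusted p = 0.00421; at most 0.0318 with any array left out). Its protein-coding relatives rose as well: Serpina3i by 2.21 and 3.47 at 2 probes, Serpina3n by 2.61, Serpina3f by 1.91 and 1.32, Serpina3c by 1.87 and Serpina3m by 0.77, each called with any array left out. Serpina3k differed by -0.06 (adjusted p = 0.746). The members of this cluster are near-identical in sequence, so the signal at Serpina3h may in part come from its relatives.

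For 20 probes of this class the parent gene named in the symbol was tested. Of the 5 called, 3 had a parent called in the same direction, where 24% of all probes tested were called. Of the 15 uncalled, 3 stood beside a called parent. Bambi rose by 0.47 beside Bambi-ps1 (-0.26), Hmga2 by 0.37 beside Hmga2-ps1 (-0.28) and Tyms by 0.29 beside Tyms-ps (0.26). These 3 parent calls were lost without any one array. Stxbp3-ps rose by 0.65, from 0.24 and 0.24 to 0.86 and 0.92 (SE 0.0583), and Stxbp3, which regulates vesicle fusion, rose by 0.68 (SE 0.0663); both calls held with any array left out. Tubb2a-ps2 and Tubb2a, a tubulin pair, fell by 0.41 and 0.44; the Tubb2a-ps2 call held only without MaR1 replicate 1, and the Tubb2a call in no leave-one-out fit. Ptma-ps2 rose by 0.31 and Pdxk-ps by 0.39 while Ptma (0.24, adjusted p = 0.0697) and Pdxk (-0.18, adjusted p = 0.0933) were not called. Pseudogene and parent share sequence, so such a pair is not a pair of separate measurements. Of the others, Sprr2j-ps rose by 0.64 (-3.67 and -3.60 to -3.09 and -2.91), and its call held only without MaR1 replicate 1. H2-Q5, a class Ib major histocompatibility sequence with strong signal, rose by 0.51 (5.72 and 5.73 to 6.26 and 6.22; adjusted p up to 0.0542 without a vehicle array). Its relatives H2-Q4 (0.08), H2-Q7 (0.12 to 0.33 at 3 probes) and H2-Q10 (-0.25 to 0.27 at 4 probes) were called at 2 probes in all. Mcpt-ps1, a mast cell protease pseudogene, fell by 0.88 (-0.12 and -0.21 to -0.87 and -1.22; adjusted p up to 0.0768 without a vehicle array). Zfp862-ps fell by 0.62 (-1.63 and -1.62 to -2.26 and -2.24), with adjusted p at most 0.0385 in any leave-one-out fit. Tubb2a-ps2 and Ptma-ps2 were singled out after their values were seen, as were Bambi-ps1, Hmga2-ps1, Tyms-ps, Snora34, Dubr, Cahm and AW011738.

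Noncoding transcripts of protein-coding genes gave 5 higher and 3 lower calls of 30 probes, with a median of -0.03 (2 and 4 without scaling). The called share was 26.7%, against 24% of all probes tested. The coding transcript of the same gene was tested beside 28 of them. Of the 8 called, the coding probe was called in the same direction for 3, in the opposite direction for 1 and not called for 4. Ccdc169, a coiled-coil gene, rose by 1.20 at its noncoding probe, from -3.33 and -3.44 to -2.24 and -2.13 (SE 0.0765, adjusted p at most 0.0286 with any array left out), and by 0.38 at its coding probe. Adamtsl5 rose by 0.69 (-2.31 and -2.15 to -1.47 and -1.60) and by 0.43 at its coding probe. Ccl25, a chemokine of gut and thymus, rose by 0.39 (-4.35 and -4.42 to -4.02 and -3.98) and by 0.77 at its coding probe (0.18 and 0.18 to 0.98 and 0.92), the second of which held with any array left out. Ncf1, the p47phox subunit of the NADPH oxidase, went both ways: its noncoding probe rose by 0.51 (-3.09 and -3.02 to -2.44 and -2.64, limma adjusted p = 0.0242) while its coding probe fell by 0.43 (2.25 and 2.20 to 1.80 and 1.79, limma adjusted p = 0.0138). The groups overlapped at neither probe; the noncoding call held only without MaR1 replicate 2 and the coding call in no leave-one-out fit. Slc8a1 fell by 0.56, Snrnp70 by 0.39 and Bcor by 0.26, and Hspa14 rose by 0.32 at 1 of 2 probes; their coding probes differed by -0.31, -0.0011, -0.09 and 0.14 and were not called. Adamtsl5 lost its call without vehicle replicate 1 or MaR1 replicate 1, Slc8a1 kept it only without vehicle replicate 2, and Ccl25, Snrnp70, Bcor and Hspa14 lost it without any one array, as did the coding probes of Ccdc169 and Adamtsl5. Aopep, whose span holds the miR-23b, miR-27b and miR-24 genes, rose by 0.66 at its coding probe (SE 0.0639, held with any array left out) and differed by -0.18 at its noncoding probe (adjusted p = 0.148). The Dzip1 noncoding probe read -2.85 on MaR1 replicate 1 and between -4.92 and -4.48 on the other 3 arrays, so its uncalled difference of 0.98 rests on 1 array.

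The other long noncoding RNAs gave 5 higher and 7 lower calls of 68 probes, with a median of -0.13 (1 and 14 without scaling). The called share was 17.6%, against 24% of all probes tested. Mexis, known in macrophages as an LXR-induced RNA that promotes expression of the cholesterol exporter Abca1, read -3.69 and -3.49 with vehicle and -4.03 and -4.31 with MaR1. It fell by 0.58 (SE 0.129, limma adjusted p = 0.0419), and Abca1 differed by 0.03 (SE 0.0714) and 0.11 (SE 0.103) at 2 probes, neither called. Morrbid, known for prolonging survival of short-lived myeloid cells by repressing the pro-apoptotic gene Bcl2l11, fell by 0.34 at 1 probe, from 1.85 and 1.67 to 1.43 and 1.42 (SE 0.0804, limma adjusted p = 0.049), and differed by -0.22 at the other (adjusted p = 0.0728). Bcl2l11 rose by 0.44 at 1 of 4 probes (-0.38 and -0.34 to 0.12 and 0.04, limma adjusted p = 0.0158), and its other 3 probes were not called. The brightest of the 4 read 2.21 and 2.27 with vehicle and 2.22 and 2.12 with MaR1, a difference of -0.07. The remaining probes differed by 0.26 and 0.24. Bvht, first described in heart development, fell by 0.46 (0.41 and 0.37 to -0.11 and -0.02, SE 0.0628), and Cahm by 0.36. Dubr rose by 0.47 (1.33 and 1.23 to 1.69 and 1.81, SE 0.0754) and kept its call only without MaR1 replicate 1. AW011738 was called at both of its probes, at 0.48 and 0.38. AW112010, an interferon-inducible myeloid RNA singled out after its values were seen, rose by 0.31, from 6.87 and 6.87 to 7.15 and 7.21 (SE 0.0584, limma adjusted p = 0.0308). The calls for Mexis, Morrbid, Bcl2l11, Bvht, Cahm and AW112010 were lost without any one array (adjusted p up to 0.157), while the first AW011738 call held only without vehicle replicate 2.

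Several well-known long noncoding RNAs did not pass the test. Neat1, the scaffold of paraspeckles, read 1.84 and 2.15 with vehicle and 2.25 and 2.30 with MaR1 at 1 probe (0.28, SE 0.119, adjusted p = 0.162) and 0.33 and 0.57 against 0.55 and 0.73 at the other (0.19, SE 0.113). Norad, which sequesters PUMILIO proteins, lay between -0.11 and 0.06 at 4 probes. Tug1 differed by -0.21 (adjusted p = 0.109), Jpx, an activator of Xist, by 0.05 (SE 0.0605), and Lncpint by -0.07 and -0.12. Firre, an X-linked RNA of nuclear organisation, read -0.61 and -0.56 against -0.91 and -1.30, with both MaR1 arrays below the vehicle arrays (-0.52, SE 0.142, adjusted p = 0.0666). Lockd, downstream of Cdkn1b, differed by -0.42 (adjusted p = 0.0758). A p above the threshold does not show that these RNAs were alike in both groups. Xist, H19, Ftx, Miat, Mir99ahg, Snhg18 and Ptgs2os2 had probes but fell outside the 254 for want of signal on some array, and Malat1, Gas5 and Mir155hg had no named noncoding probe to analyse here.

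The 23 genes with several probes mostly gave like answers: 14 had no probe called, 8 had some called, 1 (AW011738) had all called, and 0 had calls in both directions. Probes differed by over 0.5 in 2 genes. In Med9os they stood at -0.31 and 0.62, where MaR1 replicate 2 alone read -3.59 against -4.76 to -4.65 on the other arrays, and in Olfr1372-ps1 at -0.29 and 0.30. Around the threshold, Morrbid (adjusted p = 0.049) and Pdxk-ps (0.0492) lay just inside, and Macroh2a3 (difference 0.25, 0.0509) and Etfb (-0.25, 0.0522) just outside.

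The detection rule left some RNAs just outside. Ptgs2os2, opposite the prostaglandin synthase gene Ptgs2, was well above background on the 2 MaR1 arrays only. It read -5.77 and -5.82 with vehicle and -4.72 and -4.28 with MaR1. Mir99ahg, at -5.99 and -5.64 against -4.95 and -4.80, was likewise above background on the 2 MaR1 arrays only. In the other direction, Nlrp1c-ps read -4.90 and -5.00 against -6.32 and -5.75, AW822252 -4.72 and -4.83 against -5.82 and -5.87, and Snhg18 -4.83 and -4.83 against -5.64 and -5.36. Nlrp1c-ps and AW822252 were above background on the 2 vehicle arrays only, and Snhg18 on 3 arrays. A probe detected in 1 group alone was tested because it was high there. The gaps of such RNAs therefore follow in part from the filter, near the floor, and are no evidence of a change with MaR1. Just inside the rule, the dimmest RNAs were Nrg3os, at -5.19, -5.25, -5.40 and -5.69 on the 2 vehicle and 2 MaR1 arrays, and Rian, at -5.27, -5.35, -5.50 and -5.40.

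Genes that act on these RNAs were read from 5 short lists, beside called shares of 11.6% higher and 12.4% lower over all probes tested. The proteins of small nucleolar RNA particles gave 2 higher and 0 lower calls of 13, with a median of 0.20 against -0.01 over all probes: Nop56 rose by 0.34 and Nop58 by 0.30, both core box C/D proteins, and 9 of 13 had an unadjusted p under 0.05 (40.7% of all probes tested did). Without scaling, none of the 13 was called and the median was 0.08, and no call held with any 1 array left out. Of 14 paraspeckle and nuclear speckle genes, Cpsf6, a cleavage factor subunit, rose by 0.70 (1.84 and 1.89 to 2.56 and 2.58) and held with any array left out, and no other was called. Of 14 microRNA processing genes, Tarbp2, the partner of Dicer, rose by 0.54 (3.12 and 3.15 to 3.67 and 3.67), while the Argonaute genes Ago3 and Ago4 fell by 0.38 and 0.27 and Tnrc6c, a silencing cofactor, by 0.35. The Tarbp2 call held in 3 of 4 leave-one-out fits, and the 3 falls were lost without any one array. Among 14 nonsense-mediated decay genes Smg1 (0.32) and Smg5 (0.26) rose and Upf3b (-0.25) fell, calls that were lost without any one array or without scaling. None of 11 Polycomb and Xist partner genes was called by limma (4 at an unadjusted p under 0.05), and their median of 0.10 turned to -0.02 without scaling, as the paraspeckle median did from 0.10 to -0.03 and the decay median from 0.06 to -0.06.

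Some markers of liver cell types were called as well, where 11.6% of all probes tested were called higher and 12.4% lower. Each marker list is short. Kupffer cell markers gave 1 higher (Csf1r) and 2 lower calls (Adgre1 and Id3) of 10, with summed linear levels of 973 to 1010 with vehicle and 906 to 917 with MaR1, in units of each array's 75th percentile. Dendritic cell markers gave 5 higher calls of 9 (Batf3 by 1.89, Clec9a by 0.99, Cd209a, Zbtb46 and Ccr7), with Flt3 (-0.28), Siglech (-0.28), Itgae (-0.14) and Dpp4 (0.05) not called and sums of 46.0 to 49.4 and 66.7 to 67.0, while Xcr1 was not well above background. B cell markers gave 3 higher of 5 (sums 1.93 to 2.17 and 3.43 to 3.63; Blk not well above background), and sinusoidal endothelial markers 3 higher of 5 (52.6 to 55.6 and 67.5 to 67.8; Kdr not well above background). T and NK cell markers gave 4 lower of 6 (13.04 to 13.4 and 10.1 to 10.3), hepatocyte markers 1 lower of 6 (19.5 to 21.1 and 16.8 to 17.9), and stellate cell markers 2 lower of 4 (3.79 to 3.87 and 2.92 to 2.99; Col1a1 and Lrat not well above background). Neutrophil markers gave no call by limma among 4 (0 at an unadjusted p under 0.05; sums 0.978 to 1.11 and 1.11 to 1.21; Ngp not well above background). Of the 21 marker calls in all, 6 held with any array left out (Adgre1, Batf3, Clec9a, Ms4a1, Cd79b and Pecam1), 5 were lost in 1 to 3 of the leave-one-out fits and 10 in each, among them 3 of the 4 T and NK cell calls. The part of these cells in the noncoding RNA differences was not tested.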

How the data were processed

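Total RNA of 4 Kupffer cell samples was labelled with Cy3 and hybridised to 1-colour Agilent arrays. Per the file headers, the authors' intensity values are linear, were extracted by Feature Extraction 11.0.1.1 from Agilent, have background subtracted on each array and are not normalized between arrays. The deposited value table holds log2 values of 29710 probes. Its columns tracked log2 signal of the same array and had sorted values within 0.00217 of each other, as after quantile normalization, with a median of 9.07 each; its processing is not given in the sources used here, and it served as an alternative.

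Probes were named by matching their RefSeq accession to a RefSeq gene table of GRCm38.p6 (32994 matched). That table also gave the gene types used for the classes and the gene spans searched for small RNAs. The headers give another build, for which no coordinates are printed. Of 2477 noncoding probes, 70 had no symbol and were left out, 38 of them above background on all arrays. Control spots and outlier-marked spots were left out. Log2 intensity minus each array's 75th percentile was tested, two-sided and with no replicate term, in limma 3.58.1 (lmFit, eBayes; R 4.3.3) on 31108 probes well above background on both arrays of a group. The prior SD was 0.0736 with 2.31 degrees of freedom, and the code was tested on simulated data. The number of arrays limits the precision. Figures used matplotlib 3.10.9.

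Alternatives were no scaling, quantile normalization, normexp (offset 50, on the median signal), the authors' table, other filters, 1 row per gene, outlier spots kept, a variance trend, the replicate block and each array left out. Without 1 array, the lone array of its group is assumed to vary like the others. The named RNAs were the 12 widest called in each direction, without clone names and with groups that do not overlap, and a list of well-known RNAs. Antisense RNAs with a tested sense gene, the 8 widest called coding-gene transcripts and those nearest the threshold were named too. Rprl1, Rprl2 and Rprl3 joined the structural class by RefSeq type after the files were seen. Neighbouring and family genes were picked by hand. The values of 1 called RNA are not reported here, though it is counted. The RNAs, lists and rules were chosen with earlier results of these data known.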

Additional observations from a re-analysis of the deposited data

How the results depend on the processing

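The counts of 26 higher and 28 lower probes moved to 12 and 47 without scaling, where the median moved from -0.11 to -0.24, to 9 and 6 with no filter on dim probes and to 17 and 18 with the replicate block. With normexp and quantile normalization 61 were lower, and with a variance trend 65. Leaving out 1 array gave 8 to 14 higher and 6 to 9 lower, and medians of -0.12 to -0.053. Quantile normalization, the authors' table, the stricter filter, 1 row per gene and kept outlier spots held both counts within 1.5 times. Deviations of same-numbered arrays correlated at -0.0263 over 31108 probes, so the replicate block shares only a number.

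Some named RNAs, none of them called in the main test, changed sign. Without scaling the values were -0.12 for Abhd11os, -0.075 for Jpx, -0.063 for Norad, -0.0042 for Oip5os1, -0.054 for Pitpnm2os1, -0.018 for Rab10os, -0.051 for Rbm3os, -0.10 for Snhg12 and -0.021 for Snhg16. With quantile normalization they were -0.035 for Abhd11os, 0.024 for Atcayos, 0.00024 for Far1os, 0.011 for Hspa14, 0.040 for Meg3 and -0.032 for Snhg12. With normexp they were 0.040 for Atcayos, 0.0067 for Far1os, -0.025 for Jpx, 0.0027 for Lncpint, -0.046 for Snhg12 and -0.0050 for Snhg8. In the authors' table they were -0.037 for Abhd11os, 0.060 for Atcayos, 0.037 for Far1os, 0.057 for Hspa14, 0.078 for Meg3, 0.0063 for Rian, 0.0098 for Smc2os and -0.027 for Snhg12. Leaving out 1 array gave -0.012 to 0.025 for Abhd11os, -0.26 to 0.20 for Atcayos, -0.27 to 0.15 for Far1os, -0.32 to 0.21 for Hspa14, -0.071 to 0.048 for Meg3, -0.099 to 0.0013 for Mir22hg, -0.17 to 0.89 for Mirt1, -0.013 to 0.13 for Norad, -0.051 to 0.023 for Norad, -0.12 to 0.069 for Norad, -0.0017 to 0.14 for Pitpnm2os1, -0.21 to 0.057 for Plxna4os1, -0.075 to 0.22 for Rbm3os, -0.42 to 0.063 for Rn7sk, -0.18 to 0.050 for Smc2os, -0.032 to 0.072 for Snhg12 and -0.034 to 0.36 for Terc, with 1 entry per probe. The cause was not tested. Over the named RNAs and all alternatives, 1211 values kept direction and side of the threshold, 140 lost the call, 60 gained it and 52 changed sign. With 2 arrays per group, small differences cannot be resolved.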
